A study of Mus musculus with 6 samples.

Results

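Histone methyltransferases and demethylases were examined in plasmacytoid dendritic cells, the cells of the spleen that answer viral nucleic acids with type I interferon. Members were taken by gene symbol: the Kmt, Kdm, Setd, Suv39h, Ezh, Ehmt, Nsd and Prmt families, together with Dot1l, Ash1l, Eed and Suz12. Of the 52550 genes in the files, 57 had such a symbol, and the 54 with a mean normalized count of at least 10 over the 6 libraries were kept. The rule used no difference between the groups, but the members were chosen with earlier results of these data known. The members kept with the fewest reads were Setd4, with a mean normalized count of 56.8, and Kdm8, with 76.8. The 3 genes left out (Prmt8, Kdm4d and the pseudogene Kdm4dl) had no read in any library, which allows up to 3 reads in each by counting error alone.

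The cells came from the spleen of C57BL/6 mice, and all 6 libraries were made after 12 hours of R837 (imiquimod), a small-molecule agonist of the receptor TLR7. R837 was the sole addition for 3 of them, and the remaining 3 also received taurine, an amino sulfonic acid. Unstimulated cells and cells with taurine but no R837 were not analysed here. The labels do not say whether the replicates of a group are separate cultures or animals, and the p-values then measure only the spread between these libraries, which may be technical.

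Histone methyltransferases place methyl groups on lysine or arginine residues of histone tails, and demethylases take them off. Methylation of lysine 4 of histone H3 (H3K4) marks active promoters and enhancers, that of H3K36 marks transcribed gene bodies, and that of H3K9 and H3K27 marks silent chromatin. The enzymes of the KMT2 and NSD families are very large proteins encoded by long transcripts, and several work as the catalytic subunit of a multi-protein complex.

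With taurine, 6 of the 54 members were lower and none was higher (1 was at an unadjusted p under 0.05, and edgeR and DESeq2 also called 0). The 6 were Kmt2d, Kmt2c, Kmt2a, Ash1l, Nsd1 and Kdm5d, of which 5 encode lysine methyltransferases and 1 a demethylase. All 6 have exons, merged over all annotated transcripts of the gene, that add up to over 14 kb. This places them in the longest of 10 equal length classes of tested genes (from 9068 bases). Genes with a long exon total were in general lower with taurine. Kmt2d, Kmt2c and Ash1l were still called after the trend with length was removed, and Nsd1, Kdm5d and Kmt2a were not. Calls are from limma at a Benjamini-Hochberg adjusted p under 0.05 over 15265 tested genes, of which 2.66% were called lower and 3.75% higher.

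RefSeq (build GRCm38.p6) gave start-site sequences for 4 of these 6 genes. The 250 bases before each annotated start are shown because these are the members that were lower together, and they let the start regions be compared. They run 5′ to 3′ on the strand of the gene, with every CG dinucleotide in capitals.
Kmt2d, chr15:98871206-98871455, minus strand: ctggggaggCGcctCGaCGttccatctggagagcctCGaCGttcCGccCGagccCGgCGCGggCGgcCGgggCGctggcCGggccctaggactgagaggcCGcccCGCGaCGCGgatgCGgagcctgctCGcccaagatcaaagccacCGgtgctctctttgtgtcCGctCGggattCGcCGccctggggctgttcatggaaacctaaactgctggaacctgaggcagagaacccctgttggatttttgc
Kmt2c, chr5:25498784-25499033, minus strand: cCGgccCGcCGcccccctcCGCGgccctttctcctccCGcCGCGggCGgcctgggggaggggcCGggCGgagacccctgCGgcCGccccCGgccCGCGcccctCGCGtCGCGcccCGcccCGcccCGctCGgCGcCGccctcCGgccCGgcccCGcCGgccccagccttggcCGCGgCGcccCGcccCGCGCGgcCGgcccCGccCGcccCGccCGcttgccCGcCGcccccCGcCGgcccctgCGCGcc
Kmt2a, chr9:44881290-44881539, minus strand: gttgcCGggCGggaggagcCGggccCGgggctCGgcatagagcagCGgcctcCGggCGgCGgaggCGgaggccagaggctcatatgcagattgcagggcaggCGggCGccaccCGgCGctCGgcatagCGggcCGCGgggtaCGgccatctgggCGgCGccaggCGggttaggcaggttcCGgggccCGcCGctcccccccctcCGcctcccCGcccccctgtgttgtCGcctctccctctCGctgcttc
Kdm5d, chrY:897538-897787, plus strand: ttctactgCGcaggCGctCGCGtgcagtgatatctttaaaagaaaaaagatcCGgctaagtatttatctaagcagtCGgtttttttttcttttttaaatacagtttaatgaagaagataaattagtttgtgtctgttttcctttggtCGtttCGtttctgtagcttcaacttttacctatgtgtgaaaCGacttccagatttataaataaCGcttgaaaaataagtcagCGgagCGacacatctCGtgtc
The 3 KMT2 windows were dense in CG, with 48 CG dinucleotides for Kmt2c, 29 for Kmt2a and 26 for Kmt2d. The window of Kdm5d, on the Y chromosome, was AT-rich, with 13 CG dinucleotides and 36.4% G or C against 91.6% for Kmt2c. Windows were found for 41 of the 54 members, 53 in all because some genes have several starts. Their median was 20 CG dinucleotides and 61.6% G or C, against 6 and 52.4% over all 32851 windows of the same length. The windows of the members ranged from 0 CG dinucleotides in Setd5 to 56 in Kdm7a, neither of which was called. 

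Kmt2d, the member with the most reads, encodes the H3K4 monomethyltransferase MLL4 of enhancers. Its normalized counts with R837 were 19062, 18144 and 17875 for replicates 1 to 3, and those with taurine were 12793, 11571 and 11656, an order kept for every gene. The groups did not overlap, and the gap between them was wider than the range within either. The mean fell by 34.6%, from 18360.5 ± 622 to 12006.6 ± 682 (SD, n = 3 in each group). The log2 change was -0.61 ± 0.07 (SE), with a limma adjusted p of 0.00415, between 8.74e-11 and 0.0844 over the other 19 settings tried. Kmt2d (ENSMUSG00000048154.16) lies on the minus strand of chromosome 15, from 98831669 to 98871204 (mm10), and its exons total 19931 bases. It was called whichever single library was left out, with log2 changes of -0.66 to -0.59.

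Kmt2c, its close relative MLL3, showed the largest fall of the 6 genes. Normalized counts were 2573, 2773 and 2075 with R837 and 1526, 1489 and 1188 with taurine. Every taurine library was below every R837 library, and replicate 3 was the lowest library of each group. The mean fell by 43.4%, from 2474 ± 359.6 to 1401 ± 185 (SD, n = 3 in each group). The log2 change was -0.82 ± 0.14 (SE), with a limma adjusted p of 0.0153, between 1.80e-06 and 0.103 over 20 other settings. The call was lost without R837 replicate 1 (adjusted p 0.0581), R837 replicate 2 (0.0730) or taurine replicate 3 (0.0559). Kmt2c (ENSMUSG00000038056.15) lies on the minus strand of chromosome 5, from 25271798 to 25498783, with 20291 exon bases, and an exon overlaps the predicted gene Gm42585. With the reads of Gm42585 added, its log2 change was -0.81.

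Kmt2a encodes MLL1, the H3K4 methyltransferase that maintains Hox gene expression and is rearranged in leukaemia. Its normalized counts were 13502, 13350.4 and 12014 with R837 and 10078, 11039.9 and 9022 with taurine. The groups were apart, but taurine replicate 2 lay close to R837 replicate 3. The mean fell by 22.5%, from 12955 ± 819 to 10046 ± 1009.6 (SD, n = 3 in each group), a log2 change of -0.37 ± 0.09 (SE) with a limma adjusted p of 0.0444. Over 20 other settings the adjusted p lay between 0.00508 and 0.170. With a library left out, the call held only without R837 replicate 3 (adjusted p 0.0274), and without any other it was 0.0565 to 0.153. Kmt2a (ENSMUSG00000002028.13) lies on the minus strand of chromosome 9, from 44803355 to 44881296, with 16670 exon bases.

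The 8 genes listed as H3K4 methyltransferases, which also include Kmt2b, Kmt2e, Setd1a, Setd1b and Setd7, all had a negative log2 change, and in 7 of them the groups did not overlap. Over all tested genes the groups were apart in the lower direction for 15.0%, and for 29.5% of the longest class. The median log2 change of the 8 was -0.28, against -0.01 over all tested genes. Over the longest class, which holds most of the 8, it was -0.15, and 69.8% of genes there were negative. After removal of the length trend the median of the 8 was -0.16, and Kmt2b was at 0.03. Summed over the 8 genes, normalized counts were 61296, 59830 and 60120 with R837 and 46952, 49365 and 43588 with taurine. Kmt2b, the trimethylating enzyme closest to Kmt2a, was the exception to the separation. Its normalized counts were 6411, 5739 and 8187 with R837 and 5490.2, 7859 and 5767 with taurine, and its log2 change was -0.09 with a 95% interval from -0.46 to 0.28. Kmt2e, which binds H3K4 methylation, and the SET1 enzymes Setd1a and Setd1b did not pass the test at log2 changes of -0.23, -0.27 and -0.20. The limma adjusted p-values were 0.118 for Kmt2e, 0.0798 for Setd1a and 0.149 for Setd1b. Setd7, an H3K4 monomethyltransferase that also methylates other proteins, had a log2 change of -0.28 and a limma adjusted p of 0.131.

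**Figure D1:**
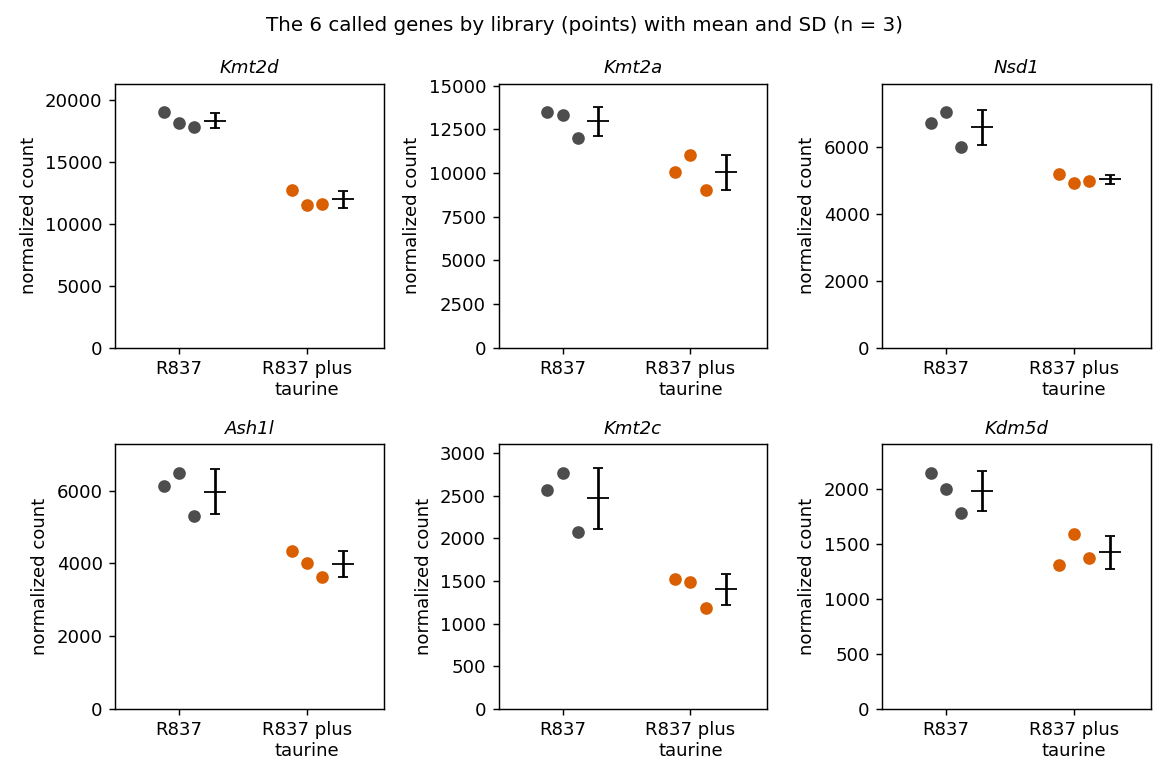
Normalized counts of the 6 members lower with taurine, 1 panel per gene on an axis that starts at 0, with 1 point per library (replicates 1 to 3 from left to right) and the mean and SD of each group beside its points (n = 3). In every panel the taurine points lie below all R837 points, and the gap is widest in Kmt2d, between 12793 and 17875.

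Of the 5 H3K36 methyltransferases, Ash1l and Nsd1 fell and the other 3 did not pass the test. Ash1l counters Polycomb silencing. Its normalized counts were 6140.2, 6500.5 and 5296 with R837 and 4334, 4014 and 3615 with taurine, with no overlap between the groups. The mean fell by 33.3%, from 5979 ± 618 to 3988 ± 360.1 (SD, n = 3 in each group), a log2 change of -0.58 ± 0.10 (SE) with a limma adjusted p of 0.0164. The adjusted p lay between 1.61e-05 and 0.111 over 20 other settings. With a library left out, the call held without R837 replicate 3 (0.00848) or taurine replicate 1 (0.0372), and without any other the adjusted p was 0.0552 to 0.0767. Ash1l (ENSMUSG00000028053.13, chromosome 3, 88950622 to 89079375, plus strand, 14838 exon bases) overlaps exons of Dap3. With the reads of Dap3 added, its log2 change was -0.45 and it was still called.

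Nsd1, which places H3K36 dimethylation between genes, had normalized counts of 6692, 7034 and 5996 with R837 and 5180.2, 4908 and 4989 with taurine. The 3 taurine libraries were close to each other and all below the R837 libraries. The mean fell by 23.6%, from 6574 ± 529 to 5026 ± 139.8 (SD, n = 3 in each group), a log2 change of -0.38 ± 0.08 (SE) with a limma adjusted p of 0.0280. The adjusted p lay between 0.000973 and 0.232 over 19 other settings. With a library left out, the call held only without R837 replicate 3 (0.0109), and without any other the adjusted p was 0.0702 to 0.115. Nsd1 (ENSMUSG00000021488.8) lies on the plus strand of chromosome 13, from 55209782 to 55318325, with 17483 exon bases.

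The other members of this role group, also in the longest class, did not pass the test. Nsd3 had normalized counts of 9911, 10609 and 7499 with R837 and 10553, 8696 and 7863 with taurine, a log2 change of -0.04 with a limma adjusted p of 0.899. Setd2, the main enzyme of H3K36 trimethylation, had 7199, 4799 and 6708 with R837 and 6962, 6268 and 6072 with taurine, a log2 change of 0.06. Nsd2 had a log2 change of -0.08. In all 3 genes the groups overlapped. Exon lengths were 16513 bases for Nsd3, 16803 for Nsd2 and 10754 for Setd2.

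Kdm5d, on the Y chromosome, was the called demethylase. It removes H3K4 di- and trimethylation. Normalized counts were 2149, 2001 and 1787 with R837 and 1306, 1592 and 1372 with taurine, and the groups did not overlap. The mean fell by 28.1%, from 1979 ± 182 to 1423 ± 149 (SD, n = 3 in each group), a log2 change of -0.48 ± 0.11 (SE) with a limma adjusted p of 0.0428. The adjusted p lay between 0.00302 and 0.215 over 19 other settings. With a library left out, the call held only without R837 replicate 3 (0.0262), and without any other the adjusted p was 0.0573 to 0.142. Kdm5d (ENSMUSG00000056673.14) lies on the plus strand of chromosome Y, from 897788 to 956786, with 15164 exon bases.

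The 3 other demethylases of the KDM5 family, which also act on H3K4, had negative changes, but none passed the test. Kdm5a had 3614, 3694 and 2701 with R837 and 2417, 2545 and 2189.8 with taurine, a log2 change of -0.47 with a limma adjusted p of 0.0649. Kdm5b had 514, 534 and 527 with R837 and 327, 412 and 434 with taurine, a log2 change of -0.43 with a limma adjusted p of 0.106. In both the groups were apart. Kdm5c, the X-linked counterpart of Kdm5d, had 8099, 8959 and 7494 with R837 and 7044, 7565 and 7324 with taurine, overlapping by 1 taurine library, and its log2 change was -0.16 with a limma adjusted p of 0.272.

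**Figure D2:**
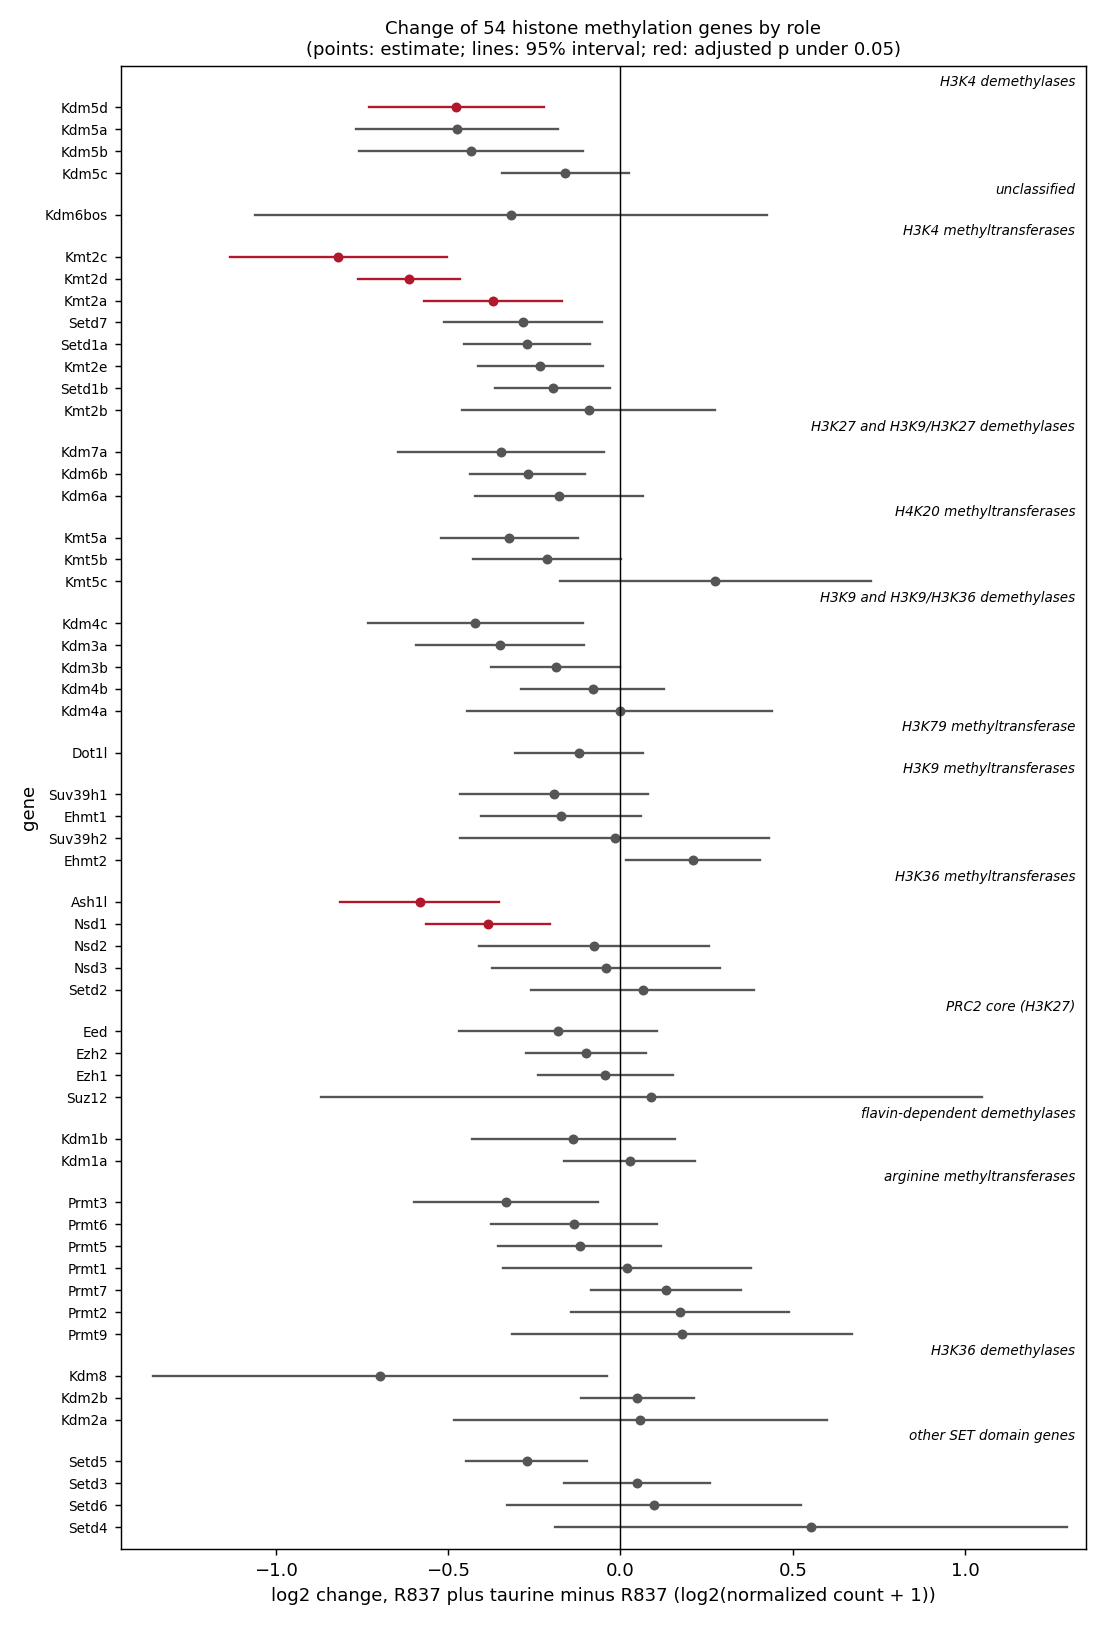
Log2 change with taurine of each of the 54 members, 1 row per gene grouped by role, with the estimate as a point and the 95% interval of the limma fit as a line, in red where the adjusted p was under 0.05. All 8 genes listed as H3K4 methyltransferases and all 4 KDM5 demethylases (the rows headed H3K4 demethylases) lie below 0, whereas the arginine methyltransferases lie on both sides of 0.

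Kdm6b, the H3K27 demethylase JMJD3 that myeloid cells induce on activation, was the member with the highest level per kilobase of exon, at a mean of 1603 normalized counts per kb over the 6 libraries. Its normalized counts were 11848, 11658 and 13038 with R837 and 9646, 10736 and 9938 with taurine, with no overlap. The log2 change of -0.27 (95% interval -0.43 to -0.10) did not pass, with a limma adjusted p of 0.0642. Over 20 other settings it lay between 0.0258 and 0.197. The antisense transcript Kdm6bos, between 71.4 and 173 normalized counts, overlaps Kdm6b, and without a known strand setting the reads of the 2 genes cannot be told apart. Kdm6a and Kdm7a, the other H3K27 demethylases, had log2 changes of -0.18 and -0.35, with limma adjusted p-values of 0.355 and 0.153.

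The H3K9 and H3K36 demethylases gave no call. Kdm3a, an H3K9 demethylase, had normalized counts of 2396, 2429.6 and 2054 with R837 and 1978, 1788 and 1636 with taurine, a log2 change of -0.35 with a limma adjusted p of 0.0883. Kdm3b, the related demethylase, had 6933, 6709 and 5939 with R837 and 5591, 6069 and 5509 with taurine, a log2 change of -0.19 with a limma adjusted p of 0.210. Kdm4c had a log2 change of -0.42 with a limma adjusted p of 0.105. Kdm4a had 4301, 4849.6 and 2957 with R837 and 4379.6, 3137 and 4466 with taurine, which overlap fully. Kdm8, listed as an H3K36 demethylase, had few reads, with 89.6, 84.7 and 109 with R837 and 74.7, 60.0 and 42.5 with taurine. Its groups were apart, yet its log2 change of -0.70 (95% interval -1.36 to -0.04) had a limma adjusted p of 0.188. Kdm2a had 5403, 5825 and 2805 with R837 and 4913, 4331 and 4678 with taurine. Its log2 change was 0.06, and -0.28 without R837 replicate 3.

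Kmt5a, which monomethylates lysine 20 of histone H4, had 2807, 2978 and 2817 with R837 and 2144, 2241 and 2509 with taurine, apart, with a log2 change of -0.32 and a limma adjusted p of 0.0654. Kmt5b, which adds the further methyl groups, had a log2 change of -0.21 and a limma adjusted p of 0.213. Kmt5c, its paralog, had 0.28 and an adjusted p of 0.442 in the same test.

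Core subunits of Polycomb repressive complex 2, which methylates H3K27, showed no call in either direction. Ezh2, the catalytic subunit, had 3207, 3224 and 3073 with R837 and 3086, 2973 and 2814 with taurine, a log2 change of -0.10 with a limma adjusted p of 0.473. Eed, which binds the methylated tail, had a log2 change of -0.18 with a limma adjusted p of 0.427. Suz12, the scaffold subunit, had 2468, 3145 and 7111 with R837 and 7129.8, 3199 and 2920.1 with taurine. In each group 1 library was more than 2 times the other two, which no other subunit of the complex showed, and the log2 change was 0.09 (95% interval -0.87 to 1.05). The highest library was 2.88 times the lowest with R837 and 2.44 times with taurine.

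H3K9 methyltransferases were not called. Ehmt2 (G9a), which dimethylates H3K9, was the only member with an unadjusted limma p under 0.05 in the higher direction. Its normalized counts were 5387, 5482 and 6427 with R837 and 6382, 6708 and 6871 with taurine, so R837 replicate 3 lay among the taurine libraries. The log2 change was 0.21 (95% interval 0.02 to 0.40) with a limma adjusted p of 0.177, and without R837 replicate 3 it was called, with an adjusted p of 0.0395. Its partner Ehmt1 had a log2 change of -0.17. Dot1l, the H3K79 methyltransferase, had 5051, 4861 and 4655 with R837 and 4407, 4851 and 4158 with taurine, which overlap, and a log2 change of -0.12 with a limma adjusted p of 0.412.

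The 7 tested arginine methyltransferases with a Prmt symbol gave no call, with 3 negative and 4 positive changes and a median log2 change of 0.02. Prmt3 had 892, 1037 and 820.4 with R837 and 735, 725 and 713 with taurine, apart, with a log2 change of -0.33 and a limma adjusted p of 0.128. Prmt6, which methylates arginine 2 of histone H3, had 2434, 2328 and 2042 with R837 and 1878, 2270.2 and 2051 with taurine, which overlap, at a log2 change of -0.13. Prmt7 had 884, 895 and 864 with R837 and 981, 927 and 992 with taurine, apart in the higher direction, at a log2 change of 0.13 and a limma adjusted p of 0.440. Prmt1, the main enzyme of asymmetric dimethylation, had a log2 change of 0.02. None of the 7 is in the longest class.

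Kdm1a and Kdm1b, the flavin-dependent demethylases of H3K4, had log2 changes of 0.03 and -0.14, neither called. Kdm1b had 4734, 4709 and 5509 with R837 and 5066, 4969 and 3676 with taurine, and its exons overlap Dek. With the reads of Dek added the change was 0.12. Setd5, a SET domain protein without a settled histone target, had 6983, 6904 and 6242 with R837 and 5506, 5883 and 5285 with taurine. Its groups were apart, and its log2 change was -0.27 with a limma adjusted p of 0.0725.

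**Figure D3:**
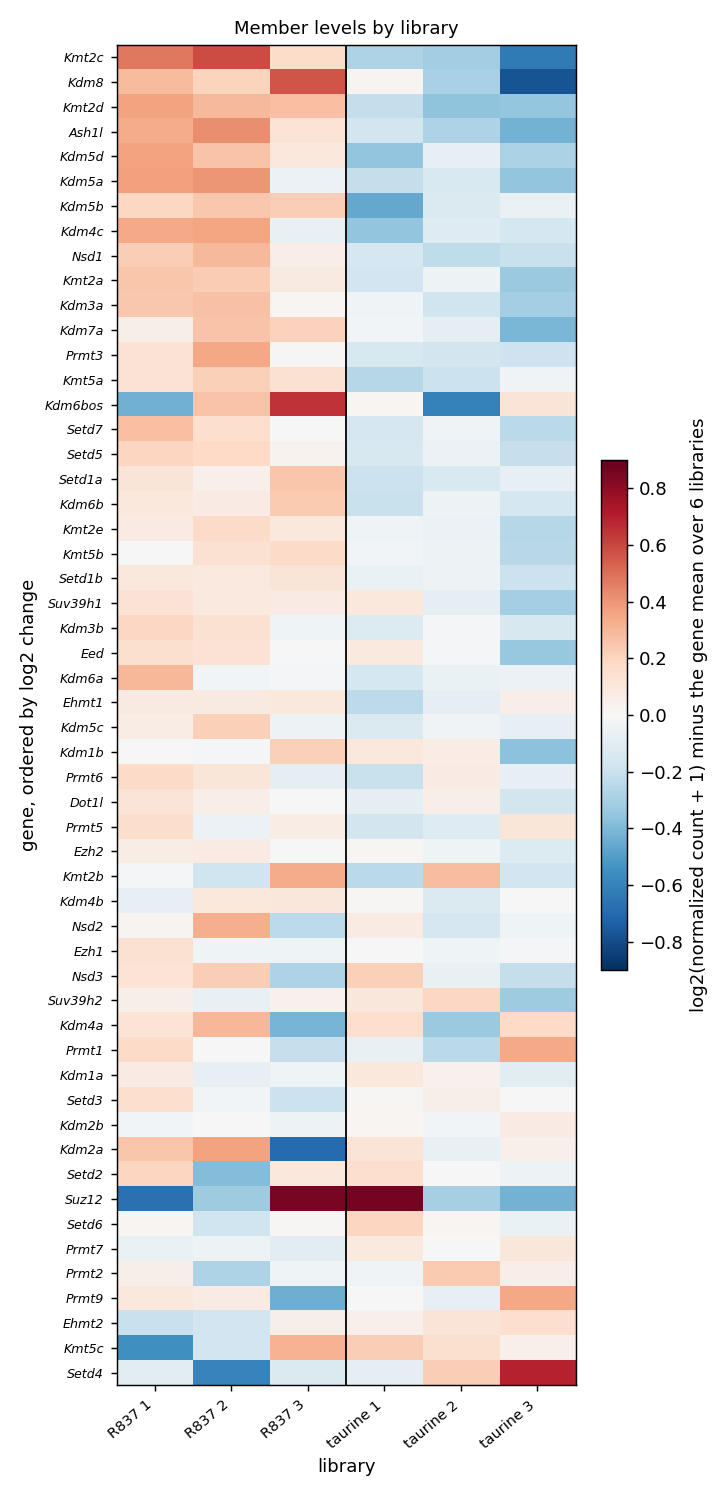
Level of each of the 54 members (rows, ordered by log2 change) in each of the 6 libraries (columns, R837 left of the line and taurine right), coloured by log2(normalized count + 1) minus the gene's mean over the libraries. The rows at the top are red under R837 and blue under taurine, R837 replicate 3 is paler than the other R837 libraries in many of them, and Suz12 is dark red in R837 replicate 3 and taurine replicate 1.

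Over the 54 members, 40 had a negative log2 change, against 51.4% of all tested genes, and the median was -0.17. At an unadjusted limma p under 0.05, 21 were lower and 1 was higher, against 12.2% and 11.6% of all tested genes. The groups did not overlap in the lower direction for 23 members and in the higher direction for 2, Prmt7 and Setd4, against 15.0% and 14.6% of all tested genes. In the longest length class, which holds 21 of the 54, 29.5% of genes were apart in the lower direction. Setd4 was apart only narrowly, with 50.9 in R837 replicate 1 and 51.5 in taurine replicate 1. Against the median of all tested genes in its length class, 35 of the 54 were lower (median difference -0.07). By edgeR 6 were lower and 0 higher, and by DESeq2 13 and 0, beside 2.48% lower and 3.74% higher of all tested genes by edgeR and 6.02% and 6.51% by DESeq2. The 36 methyltransferases and PRC2 subunits had a median log2 change of -0.12 and the 17 demethylases one of -0.19, a difference that was not tested. The remaining member, the antisense transcript Kdm6bos, is in neither group and had a log2 change of -0.32.

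In each library, the median over members of the deviation from each gene's mean over the 6 libraries was 0.12, 0.10 and 0.04 for R837 and -0.04, -0.05 and -0.13 for taurine, on the log2 scale. R837 replicate 3 was thus the R837 library nearest to the taurine group. Without it, 10 members were called lower and 1 higher, and 4.65% of all tested genes were called lower and 5.02% higher. Without any other single library 1 to 3 members and 33 to 112 of the 15265 genes were called lower.

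Exon length moved with the change. The members' exons had a median of 7032 bases, against 3707 over all tested genes, and 21 of the 54 lay in the longest class. Across members, log2 change and exon length had a Spearman rho of -0.444 (n = 54), and across all tested genes one of -0.192 (n = 15238). Genes are not independent replicates, and all the points come from the same 6 libraries. The trend also differed between libraries of a group. The Spearman rho of exon length with the deviation from the gene mean was 0.108, 0.147 and 0.0443 for R837 replicates 1 to 3. For taurine replicates 1 to 3 it was -0.100, -0.131 and -0.203. In the longest class as a whole, 69.8% of 1524 genes had a negative change, the median was -0.15, and 8.40% were called lower. The 21 members in it had a median of -0.27, 18 were negative and 6 were called lower. In the next class (6797 to 9066 bases) the median of all genes was -0.09, and the 7 members there were all negative with none called. In the shortest class the median of all genes was 0.13.

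**Figure D4:**
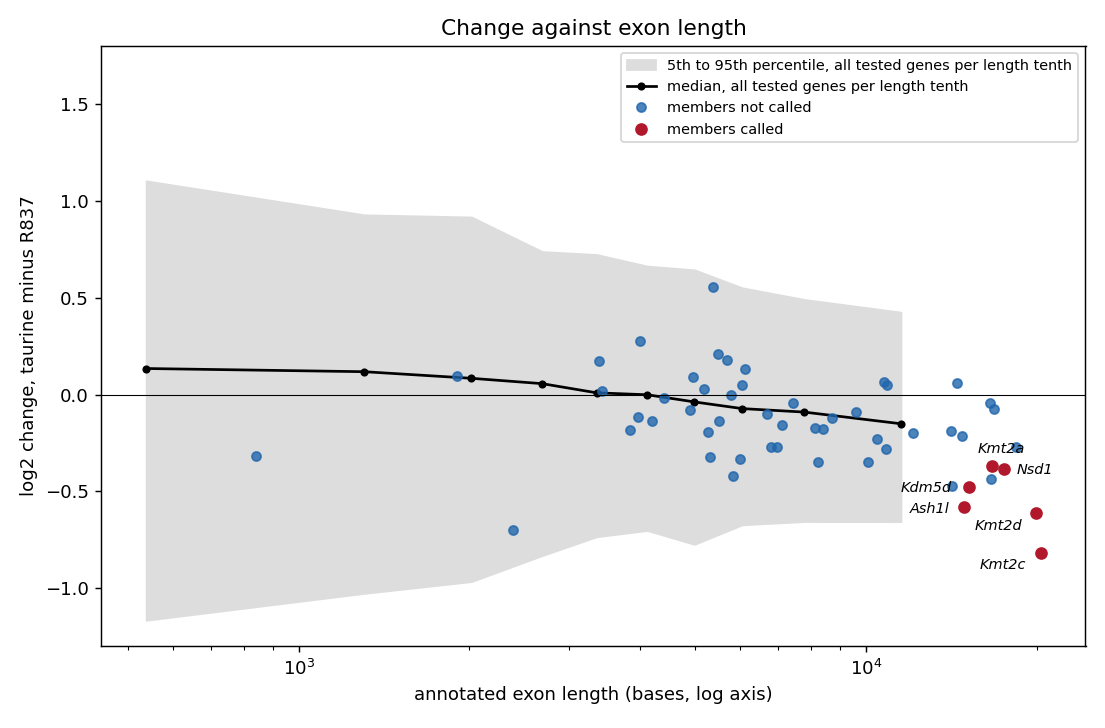
Log2 change with taurine against total exon length (log axis), with members not called in blue and called members in red and named. The black line joins the medians of all tested genes in the 10 length classes and the grey band spans their 5th to 95th percentiles. The median of all genes goes from 0.13 in the shortest class to -0.15 in the longest, and the 6 called members sit at the right, between -0.37 and -0.82.

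Within the longest class, Kmt2c was lower than all but 42 of the 1524 genes, Kmt2d than all but 91 and Ash1l than all but 107. For Kdm5d, Nsd1 and Kmt2a the numbers were 188, 293 and 306. A narrower window from 14 to 21 kb, set after the lengths of the called members were seen, held 333 genes. Of these, 74.2% had a negative change, 11.7% were called lower, and the median was -0.19. The 14 members in the window had a median of -0.38, with 13 negative and 6 called. Within it 8 genes were lower than Kmt2c, 24 lower than Kmt2d and 30 lower than Ash1l, whereas 73 were lower than Nsd1 and 78 lower than Kmt2a.

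Removing a smooth curve on log exon length from each library left a median log2 change of -0.07 over the members, against 0.00 over all tested genes. After this, 3 members were called lower and 0 higher, with 1.47% of all tested genes called lower and 3.30% higher, and with 2.23% of the longest class called lower. Kmt2d was at -0.40 (limma adjusted p 0.0175), Kmt2c at -0.60 (0.0216) and Ash1l at -0.40 (0.0281). Nsd1 and Kmt2a were at -0.18 (0.178 and 0.170) and Kdm5d at -0.29 (0.148). With GC content removed as well, Kdm6b joined the first 3, with an adjusted p of 0.0461, and 2.08% of all tested genes were called lower and 3.91% higher. Nsd3 turned from -0.04 to 0.15 with only the length trend removed, and to 0.20 with GC as well.

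**Figure D5:**
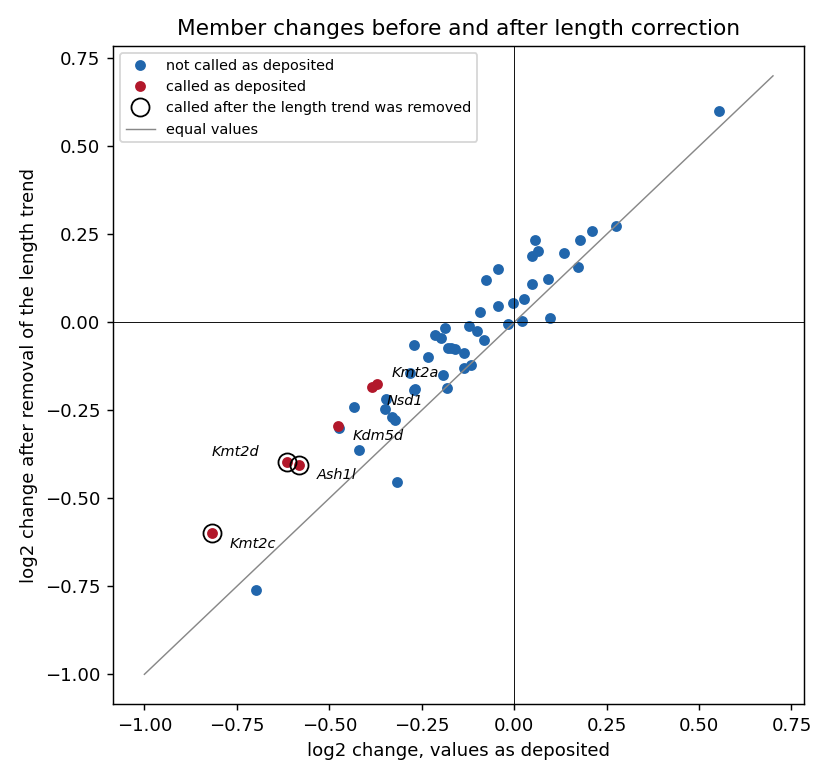
Log2 change of each member after removal of the trend with exon length (vertical) against the log2 change of the values as deposited (horizontal), with called members in red, circles around members called after the removal and a grey line of equal values. All 6 called members lie above the line, nearer to 0 than before, and the circled ones are Kmt2c at -0.60 and Kmt2d and Ash1l at -0.40.

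A further list (cofactors) joined proteins that work with these enzymes to 17 other methyltransferases and demethylases outside the naming rule. Some of the partners, Setdb1, Setdb2 and Carm1 among them, are themselves methyltransferases outside the rule and are not counted in the 17. The list held 66 genes, of which 64 were tested. With limma 2 were lower and 0 higher, where 2.66% and 3.75% of all tested genes were, so the count of lower calls was near that of genes in general. At an unadjusted p under 0.05, 11 were lower and 4 higher, beside 12.2% and 11.6% of all tested genes, and the median log2 change was -0.08. Mllt10 (AF10), which brings DOT1L to chromatin, had 1463, 1632 and 1303 with R837 and 1045, 1118 and 1040.3 with taurine. Its groups were apart, and its log2 change was -0.45 with a limma adjusted p of 0.0463. Setdb1, an enzyme that trimethylates H3K9 and whose symbol lies outside the naming rule, had 3072, 3207 and 2699.6 with R837 and 2275, 2272 and 2385 with taurine. Its log2 change was -0.37 with a limma adjusted p of 0.0464. Neither was called once the length trend was removed, and in that fit 2 others were called higher: Aff1, a partner of the DOT1L complex, at 0.40 (limma adjusted p 0.0198), and the KDM1A partner Phf21a at 0.37 (0.0392). Mllt10 and Setdb1 kept their calls with a library left out only without R837 replicate 3. Exons of Mllt10 overlap Dnajc1, and with its reads added Mllt10 was not called, and exons of Setdb1 overlap Cers2. None of the 12 listed subunits of the H3K4 methyltransferase complexes, some common to all of them and some particular to a few, was called (median -0.05). Nor was any of the 7 PRC2 accessory subunits, all of which had negative changes (median -0.13). Of all tested genes, 51.4% had a negative change. With the values as deposited, none of the 10 KDM1A partners was called either (median 0.11). By edgeR 2 cofactors were called lower and 0 higher, and by DESeq2 7 and 2. Of all tested genes, edgeR called 2.48% lower and 3.74% higher, and DESeq2 6.02% and 6.51%.

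Between 33585080 and 38392654 reads on genes were inferred per library. Over all genes 573 were higher and 406 lower with taurine. With totals rescaled on all but the 50 most abundant genes these became 462 and 586, and with the length trend removed 504 and 225. All 14 markers of plasmacytoid dendritic cells on the list were present, with summed normalized counts of 414072 to 452385 with R837 and 447825 to 463925 with taurine. Of these, 3 were called higher (Irf7, Bst2 and Cox6a2) and 4 lower (Tcf4, Runx2, Klk1 and Pacsin1), named after their values were seen. Tcf4, a transcription factor that defines the lineage, had a log2 change of -0.51 and Runx2 one of -0.60, and Irf7 one of 0.65. The T cell markers Cd3d and Cd3g were at 0, and none of the 4 T cell markers reached a mean of 10. Summed neutrophil markers were 425 to 606 with R837 and 785 to 890.5 with taurine, and erythroid markers 50.005 to 83.3 and 119 to 153. B cell markers summed to 1276 to 2299.9 with R837 and 1491 to 2262 with taurine. Conventional dendritic cell markers summed to 5268 to 5664 with R837 and 4996 to 5044 with taurine. Within that list Clec9a had a log2 change of -0.46, whereas Zbtb46 was at 0.12, Clec10a at 0.25 and Xcr1 at -0.000933. Monocyte and macrophage markers summed to 4597 to 4877 with R837 and 4043 to 5005 with taurine. NK cell markers summed to 31.2 to 64.2 with R837 and 25.5 to 50.4 with taurine. The sums of the neutrophil, erythroid and conventional dendritic cell lists did not overlap between the groups, each with 1 called gene (Ngp and Hba-a1 higher, Clec9a lower), and their part in the member values was not tested. In bulk libraries, fewer cells of a type and less RNA per cell cannot be told apart.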

How the data were processed

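Messenger RNA of 6 libraries was measured. Per the file headers, the deposited signal is a normalized count per gene, and all values of a library were multiples of the same step (tolerance 0.001 of a read). The deposited values are thus whole numbers divided by a size factor, between 0.942 and 1.06, and these whole numbers were taken as reads. The submitters' processing notes list HISAT2 and StringTie as tools and mm10 and mm8 as builds. How reads were counted, with which strand setting, and how they were normalized is not given in the sources used here, and overlapping genes are therefore uncertain. Exon lengths came from GENCODE M21 (mm10), which matched 52403 of the 52550 identifiers, 95.2% of them with the same coordinates. An exon length is the total of the merged exons of all annotated transcripts of a gene. It can exceed the length of the transcript expressed, so length classes and length trends also depend on the annotation. The symbols of 27 genes had turned into day numbers and were restored from their identifiers.

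Tests used limma 3.58.1 (R 4.3.3) with an abundance trend on log2(value + 1) of genes at 10 or more in at least 3 libraries, as a two-sided test, adjusted by Benjamini-Hochberg over all genes tested. Fold changes are on this scale, which understates those of low genes. Alternatives were other scalings, pseudocounts and filters, no abundance trend, a replicate block, each library left out, length and GC trends removed, and edgeR 4.0.16 and DESeq2 1.42.0 on the recovered reads. Length trends were lowess curves (span 0.3). Replicates of a group differed by far more than sampling noise (chi-square per degree of freedom 20.6 to 42.9). Averaged over genes, counting error is small at these depths beside that spread. It was not compared gene by gene, and it weighs more in members with few reads. The text names members that were called and, in each role group, the one with the highest mean and the one with the smallest p. Other members were named after their values were seen. The members and lists were chosen with earlier results of these data known. The sums with overlapping genes and the window from 14 to 21 kb were chosen after seeing the data.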

Additional observations from a re-analysis of the deposited data

How the results depend on the processing

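The 6 calls among the members were the same with TMM scaling, edgeR, pseudocounts of 0.5 and 5, and a mean of at least 50. DESeq2 called 13, totals of all but the 50 most abundant genes 10, the length trend removed 3, and no filter on low values 3. Without an abundance trend limma called 0, with 16 lower and 0 higher at an unadjusted p under 0.05. Leaving out each library gave 1 to 10 lower and 0 to 1 higher. The median of the members was -0.0681 with the length trend removed and -0.0642 with length and GC removed, and -0.21 to -0.14 with a library left out. Same-numbered libraries of the 2 groups did not deviate together from their group means, with correlations of -0.00264, -0.00681 and -0.0434. The labels do not say whether the numbers pair the libraries, and these values cannot settle it. With a replicate block 5 members were lower, 4 of them among the 6, with 365 genes higher and 250 lower over all and 1 cofactor lower. Over all genes, higher and lower came to 994 and 919 with DESeq2, 1 and 3 without an abundance trend and 333 and 214 with no filter, 225 were lower with the length trend removed, and a library left out gave 101 to 767 higher and 33 to 710 lower. Cofactors higher came to 2 with DESeq2 and with the length trend removed, with and without GC. Cofactors lower came to 7 with DESeq2, 4 with totals of all but the 50 most abundant genes, 1 with quantile normalization, 0 with the length trend removed (with and without GC), with no abundance trend and with no filter, and 0 to 9 with a library left out. Of the values of named members, 403 of the alternatives kept their direction and side of the threshold, 39 lost and 12 gained the call, and 14 reversed. Reversed were Kdm1b at 0.12 with overlapping genes added, Kdm2a at -0.00586 with DESeq2 and -0.00187 with edgeR, Kmt5b at 0.0105 with length and GC removed, and Nsd3 at 0.15 with the length trend removed and 0.20 with GC as well. With a library left out, Kdm1b ranged from -0.22 to 0.0135, Kdm2a from -0.28 to 0.25, Nsd3 from -0.19 to 0.0572 and Suz12 from -0.32 to 0.54. The cause was not tested. In the average over genes, the replicate number per group, more than read depth, limits the precision.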
